A study of Homo sapiens with 4 samples.

Results

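The genes described here are 42 genes of homologous recombination and the Fanconi anemia pathway, picked by symbol from the 58735 genes of the deposited table, each with the counts of its annotated transcripts summed and the type of every transcript kept. RNA was sequenced from the human lung cancer cell line H1299, of the non-small-cell type, after 48 h in 0.5 mM methylparaben (a preservative of foods and cosmetics, 2 libraries), and from ethanol-treated control cells (2 libraries). RNA was extracted with Trizol and selected on poly-A beads, and sequencing gave 3760982 and 2068486 counts in methylparaben replicates 1 and 2, against 2368658 and 2182058 counts in ethanol replicates 1 and 2. Each group is called a duplicate, with no word on whether separate cultures were used, so the p-values reflect only the spread of these samples, which could be technical. The comparison asks how transcript levels differ between methylparaben-treated cells and ethanol controls.

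Homologous recombination repairs DNA double-strand breaks by copying an intact sister sequence. The kinases ATM and ATR signal the damage, the MRE11, RAD50 and NBN complex starts the trimming of the ends, BRCA2 with its partners and XRCC2 with its relatives prepare the trimmed strand for pairing with the sister, and TP53BP1 and RIF1 oppose end trimming. The Fanconi anemia proteins recognise crosslinked DNA strands, mark the FANCD2 and FANCI pair with ubiquitin and hand the lesion to nucleases and to recombination, and many genes of both pathways are most active in dividing cells.

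Reads appear to have been counted only where a base lies in 1 annotated transcript and no other. A gene is thus seen through part of its RNA. Of the 550 transcripts of the 42 genes, 285 have no such base and none of these had a read, and 125 had at least 1 read. At these depths a count of 0 limits the counted bases of a gene, not its whole RNA. The limit is 0.816 and 1.57 CPM (counts relative to TMM-scaled library size) in methylparaben 1 and 2, against 1.28 and 1.30 CPM in ethanol 1 and 2. It takes 3 counts as the upper limit, for counting error alone. Of the markers of the line, AXL and VIM were read in every library (at least 534 and 32.4 CPM), while CDH2, ZEB1 and TGFBI had at most 3 counts in a library. The epithelial markers EPCAM, CDH1 and KRT19 and all listed lung, blood and liver markers had 0 counts in all 4 libraries.

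Among all 8055 genes tested, 18.4% were lower and 18.5% higher in methylparaben-treated cells. Of the 20 genes of the set with enough reads to test, 6 were lower and 2 were higher. The lower ones were BRIP1, XRCC2, RAD50, MDC1, RIF1 and MRE11, by 1.63- to 3.57-fold. Of these, BRIP1, MDC1 and RIF1 were read mainly in exons of the longest coding transcript. RAD50 was read mainly in an intron, and MRE11 and XRCC2 mainly outside that transcript. The higher ones were ATM and NBN, read here through intron sequence. In the gene TP53BP1 the coding transcript was 4.43-fold lower while a transcript annotated as retained-intron, read on intron bases, was 2.41-fold higher. Of the 8 tested transcripts of the set read in exons of the main coding transcript, none was higher and 4 were lower. Among all such transcripts 14.2% were higher and 26.7% lower. Of the 9 read in introns, 4 were higher and 2 lower, beside 34.1% higher and 8.43% lower among all transcripts read there. Those 4 came from only 2 genes, ATM and TP53BP1, and the 2 lower ones from RAD50 and RAD51B.

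The sequences that separate these kinds of RNA are the boundaries where a transcript runs on between a coding exon and the intron beside it. They are shown for the retained-intron transcripts that passed the test, 80 bases each from GENCODE release 29 on GRCh38, 5′ to 3′ on the strand of the gene. Capitals mark the 40 bases that belong to the retained-intron transcript alone, and lower case marks the coding exon. The stretch of TP53BP1-212 lies at chr15:43416377-43416456 and is shown because this transcript and the coding one moved in opposite directions.
TP53BP1-212: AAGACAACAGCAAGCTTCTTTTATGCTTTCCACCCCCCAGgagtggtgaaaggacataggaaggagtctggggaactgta
The stretch of ATM-222 lies at chr11:108289762-108289841 and that of ATM-221 at chr11:108297247-108297326, both shown because the reads of ATM came from such introns.
ATM-222: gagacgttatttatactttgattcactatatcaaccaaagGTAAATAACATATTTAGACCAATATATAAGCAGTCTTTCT
ATM-221: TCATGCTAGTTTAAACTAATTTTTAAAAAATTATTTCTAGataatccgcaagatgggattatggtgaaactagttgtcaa

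Among the kinases that signal DNA damage, ATM was higher with methylparaben and ATR was not called. ATM, the kinase that responds to double-strand breaks, had 55.5 and 41.3 CPM in the methylparaben libraries, against 12.3 and 11.7 CPM in the ethanol libraries. The groups did not overlap, and the gene count was 4.04-fold higher (log2 change 2.02 ± 0.31 SE, edgeR quasi-likelihood test, adjusted p = 0.00128). ATR, the kinase that responds to single-stranded DNA, had 133.6 and 126.1 CPM with methylparaben and 157.8 and 137.6 CPM with ethanol. Its log2 change of -0.18 ± 0.18 was about the size of its SE (adjusted p = 0.460). Of their partners, ATRIP, which recruits ATR, had 5 and 0 counts with methylparaben and 2 and 1 with ethanol. The effector kinases CHEK1 and CHEK2 had 13 and 9 counts over the methylparaben libraries, against 16 and 12 over the ethanol libraries, too few to test.

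All 339 reads of ATM lay in introns of its longest coding transcript, ATM-201, and none lay in its exons. They were assigned to 10 of 30 annotated ATM transcripts, and other RNA that holds the same intron bases was not told apart from these. Few exon bases of ATM-201 could be counted, so the lack of exon reads says little. Of the 5478 single-transcript bases of coding ATM transcripts, 4644 were of ATM-215 and 626 of ATM-216, all within introns of ATM-201. ATM-215, a transcript of 5718 bases annotated as coding, had 30.4 and 14.8 CPM with methylparaben, against 9.10 and 6.62 CPM with ethanol (log2 change 1.55 ± 0.46, adjusted p = 0.0230). The retained-intron transcript ATM-222 had 10.6 and 11.1 CPM with methylparaben and 3.03 and 2.65 CPM with ethanol (log2 change 1.91 ± 0.54, adjusted p = 0.0187). ATM-221 had 6.78 and 7.93 CPM with methylparaben and 0.433 and 1.77 CPM with ethanol (log2 change 2.68 ± 0.72, adjusted p = 0.0153). These 3 transcripts were higher in both methylparaben libraries than in either ethanol library, and their shares of the ATM reads were not called as changed (diffSpliceDGE, adjusted p = 0.494). Another, ATM-216, was not tested and had 23 counts with methylparaben and 1 with ethanol, a ratio of 19.2 with a 95% counting interval of 3.12 to 791. The call of the gene sum held without each library in turn, but that of ATM-222 was lost without any 1 library (adjusted p up to 0.0868) and with DESeq2 (0.0799). The call of ATM-221 was lost with DESeq2 (0.0688) and without methylparaben 1, methylparaben 2 or ethanol 1 (adjusted p up to 0.143), with log2 changes of 1.98 without ethanol 1 and 3.93 without ethanol 2. That of ATM-215 was lost without methylparaben 1 (log2 change 0.91, adjusted p = 0.246), ethanol 1 (0.0749) or ethanol 2 (0.122).

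Against these counts, 18.5% of the 8055 genes tested in all were higher with methylparaben and 18.4% were lower, at the same adjusted p under 0.05. The 20 tested repair genes had a median log2 change of -0.71, with 17 below 0, and the median of all tested genes was 0.03. Reads of all 42 genes together made up 0.0731% and 0.0603% of the methylparaben libraries (exact 95% binomial intervals 0.0704 to 0.0759 and 0.0570 to 0.0637), against 0.106% and 0.120% of the ethanol libraries (0.102 to 0.111 and 0.115 to 0.124). These intervals hold counting error alone, and libraries of 1 group differed beyond them. In bulk RNA, fewer cells that express a gene and less RNA per cell cannot be told apart.

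**Figure D1:**
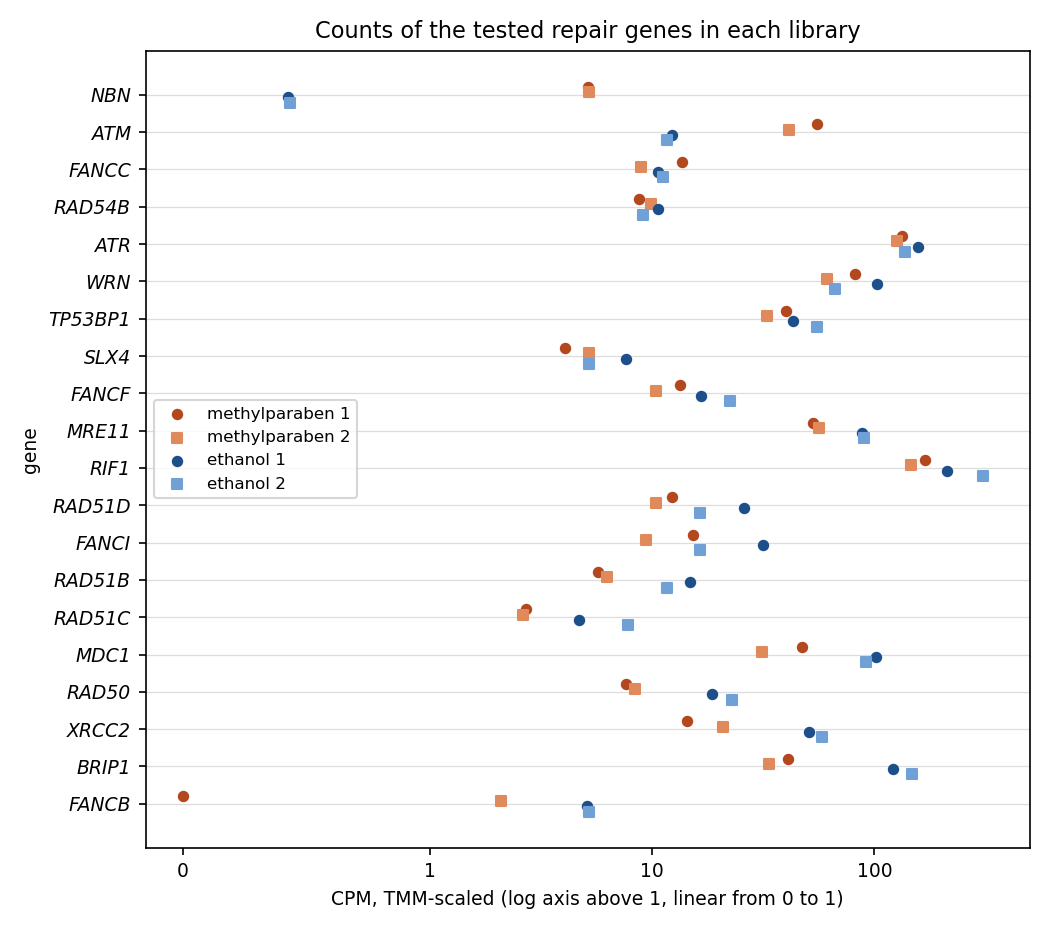
CPM of the 20 tested repair genes in each of the 4 libraries, on an axis that is logarithmic above 1 and linear from 0 to 1, ordered by log2 fold change. BRIP1 had 41.1 and 33.5 CPM in the methylparaben libraries, left of 120.8 and 147.6 CPM in the ethanol libraries, and ATM shows the opposite order.

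The complex that starts end trimming was read as RAD50 and MRE11 lower and NBN higher in methylparaben-treated cells. RAD50, the ATPase that tethers the broken ends, had 7.62 and 8.37 CPM with methylparaben and 18.7 and 22.9 CPM with ethanol. It was 2.61-fold lower (log2 change -1.38 ± 0.39, adjusted p = 0.0193), and 97.2% of its reads lay in an intron of RAD50-201. Those reads were nearly all from RAD50-204, annotated as coding, with 6.78 and 8.46 CPM in the methylparaben libraries, against 19.1 and 21.6 CPM in the ethanol libraries. MRE11, the nuclease of the complex, had 52.8 and 56.5 CPM with methylparaben and 88.0 and 89.6 CPM with ethanol, 1.63-fold lower (log2 change -0.70 ± 0.22, adjusted p = 0.0295). Its reads came from the long 3′ end of MRE11-201, a stretch of 4288 bases on chromosome 11 from 94415578 to 94419865, which lies beyond the longest coding transcript. Each of these genes kept its groups apart, but the call of RAD50 was lost without ethanol 2 (adjusted p = 0.108) and with DESeq2 (0.0600). That of MRE11 was lost in 10 of 17 alternatives, among them DESeq2 (0.0570), no filter (0.0626) and leaving out methylparaben 1 (0.0664), ethanol 1 (0.116) or ethanol 2 (0.144).

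NBN, the subunit that recruits ATM, had 19 and 10 counts with methylparaben and 1 and 1 with ethanol. Its ratio was 12.1 with a 95% counting interval of 3.06 to 105 (edgeR adjusted p = 0.00913). Of its 31 reads 90.3% were on retained-intron transcripts and 6.45% on coding ones. NBN-205, a retained-intron transcript, had 9 and 4 counts with methylparaben and none with ethanol, at least 3.62-fold higher with 3 counts over the ethanol group as the limit. Without methylparaben 2, ethanol 1 or ethanol 2 the call of the gene was lost (adjusted p = 0.0768, 0.138 and 0.118), as it was with DESeq2 (0.0659). RBBP8, also called CtIP, the cofactor of MRE11 in trimming, had 1 count with methylparaben and 6 with ethanol, all of the 6 in ethanol 1. The long-range nuclease EXO1 had 0 counts in all 4 libraries on 693 single-transcript bases, so its change was not detectable here.

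**Figure D2:**
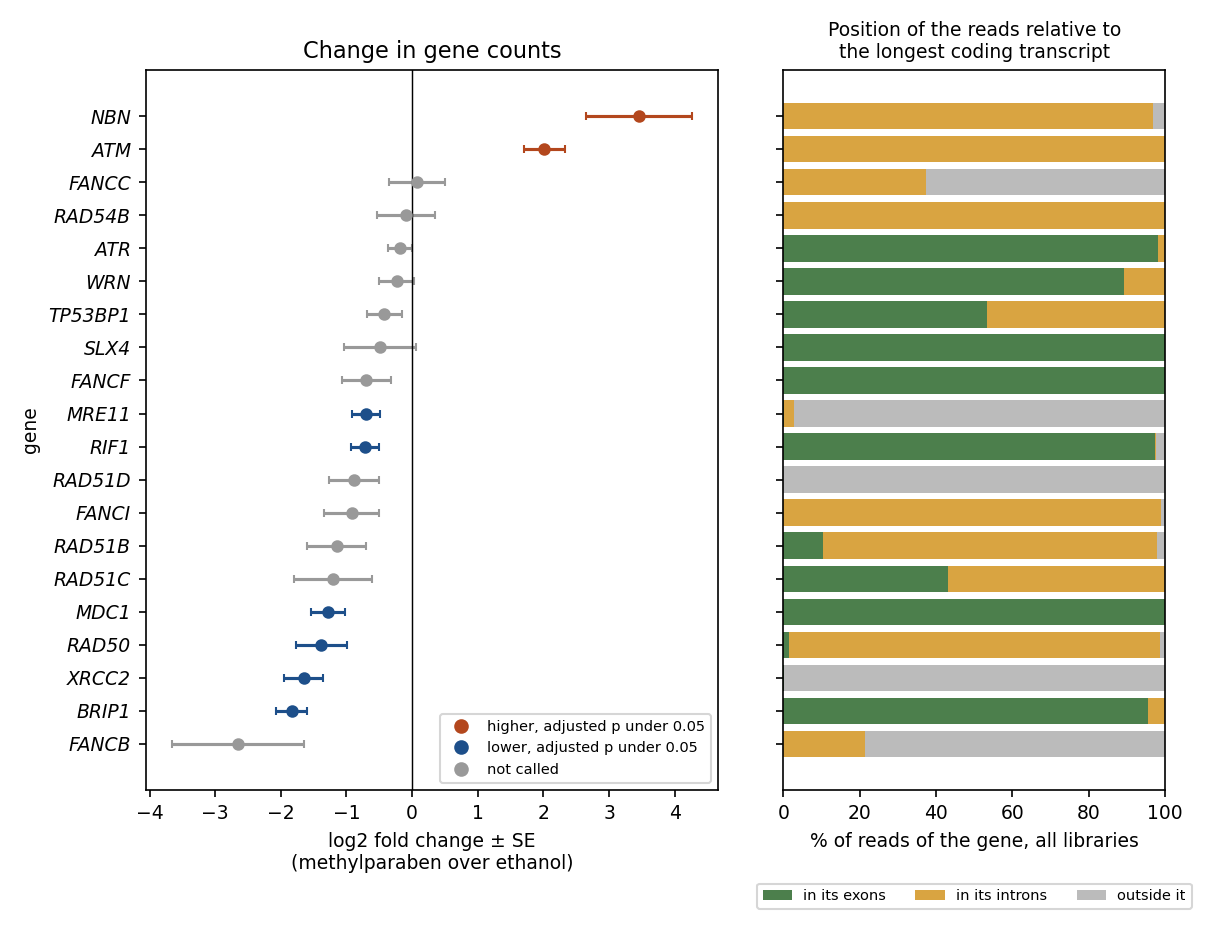
Left, log2 fold change of methylparaben over ethanol with its SE for the 20 tested genes, coloured by the edgeR call at an adjusted p under 0.05. Right, the percentage of each gene's reads in exons, in introns or outside the longest coding transcript. BRIP1 at -1.84 and MDC1 at -1.28 were read in exons, ATM at 2.02 in introns.

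BRIP1, also called FANCJ, a helicase that binds BRCA1, showed the largest decrease among the called genes of the set. It had 41.1 and 33.5 CPM with methylparaben and 120.8 and 147.6 CPM with ethanol, with means of 37.3 ± 5.37 and 134.2 ± 19.0 CPM (SD, n = 2 each). The difference was 3.57-fold (log2 change -1.84 ± 0.23, adjusted p = 0.000437), and 95.6% of its reads lay in exons of its longest coding transcript. That transcript, BRIP1-201, was read over 3052 bases, of which 27.6% are coding and 72.4% untranslated, the longest stretch lying on chromosome 17 from 61681266 to 61684140. Its own log2 change was -1.89 ± 0.24 (adjusted p = 0.000367), and it was called in all 10 transcript alternatives. The other transcript with reads to speak of, the coding BRIP1-202, had 13 counts with methylparaben and 20 with ethanol, a ratio of 0.542 with an interval of 0.248 to 1.15.

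The BRCA genes and their mediators were scarcely read on single-transcript bases. BRCA1, the ubiquitin ligase that promotes end trimming, had 0 counts with methylparaben and 3 with ethanol, and its partner BARD1 had 2 with methylparaben and 5 with ethanol. BRCA2, a mediator of strand exchange, had 6 and 5 counts with methylparaben and 6 and 17 with ethanol, groups that overlap, and the ratio was 0.399 with a counting interval of 0.176 to 0.852. PALB2, which bridges BRCA1 and BRCA2, had 3 counts with methylparaben and 2 with ethanol. RAD52, an annealing protein, had 18 and 9 counts with methylparaben and 4 and 5 with ethanol, a ratio of 2.50 with an interval of 1.14 to 6.05. Of these, 13 methylparaben counts and no ethanol count were on its retained-intron transcript RAD52-209, at least 3.62-fold higher. No difference in BRCA1, BARD1 or PALB2 was detectable at this depth.

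Of the genes RAD51B, RAD51C, RAD51D, XRCC2 and XRCC3, whose products assist strand exchange, XRCC2 was lower, and the other 3 tested ones were not called. XRCC2 had 14.4 and 20.9 CPM with methylparaben and 51.0 and 58.4 CPM with ethanol. It was 3.15-fold lower (log2 change -1.65 ± 0.30, adjusted p = 0.00280), with groups far apart. Its reads came from XRCC2-202, a processed transcript without a coding sequence that ends beyond the 3′ end of the coding one, on 1725 bases of chromosome 7 from 152644779 to 152646503, and 0.287% of them from the coding transcript. RAD51B had 5.71 and 6.28 CPM with methylparaben and 14.9 and 11.7 CPM with ethanol (log2 change -1.15 ± 0.45, adjusted p = 0.070), and was called with library-size scaling alone (0.0481). Within it RAD51B-210, annotated as coding, had 4 and 5 counts with methylparaben and 17 and 16 with ethanol (log2 change -2.07 ± 0.65, adjusted p = 0.0289). That call was lost in 8 of 10 alternatives, DESeq2 (0.145) and leaving out any 1 library among them, with a log2 change of -1.43 (adjusted p = 0.261) without methylparaben 1 and -2.66 (0.0595) without methylparaben 2. RAD51B-204, a processed transcript, had no count with methylparaben and 13 with ethanol, at least 5.19-fold lower with 3 counts over the methylparaben group as the limit. RAD51C had 2.72 and 2.62 CPM with methylparaben, against 4.68 and 7.79 CPM with ethanol (adjusted p = 0.140). RAD51D had 12.2 and 10.5 CPM with methylparaben, against 25.9 and 16.5 CPM with ethanol (adjusted p = 0.0976). XRCC3 had 0 counts in all 4 libraries, on only 27 single-transcript bases.

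The motor proteins RAD54B and RAD54L, which act in strand exchange, gave no call. RAD54B had 8.71 and 9.94 CPM with methylparaben and 10.6 and 9.09 CPM with ethanol, overlapping groups with a log2 change of -0.09 ± 0.44 (adjusted p = 0.895). RAD54L had 5 counts with methylparaben and 2 with ethanol.

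No gene of the Fanconi anemia core complex was called, and most had few reads. FANCF, an adaptor of the core complex and an intronless gene, had 13.3 and 10.5 CPM with methylparaben and 16.6 and 22.5 CPM with ethanol (log2 change -0.70 ± 0.38, adjusted p = 0.172). FANCC had 13.6 and 8.90 CPM with methylparaben and 10.6 and 11.3 CPM with ethanol (log2 change 0.07 ± 0.43, adjusted p = 0.920). Its transcripts went apart in counts. The coding FANCC-210 had 29 and 6 counts with methylparaben and 0 and 3 with ethanol, a ratio of 9.74 with an interval of 3.07 to 49.5. The processed transcript FANCC-203 had 31 with methylparaben and 43 with ethanol (log2 change -0.74 ± 0.49, adjusted p = 0.254).

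FANCB, which joins the catalytic part of the core complex, had 0 and 4 counts with methylparaben and 12 and 12 with ethanol. Its ratio was 0.139 with an interval of 0.0351 to 0.405, and it missed the threshold (adjusted p = 0.0626), though it was called without methylparaben 2 (0.0174) and with library-size scaling (0.0382). Its fitted log2 change of -2.66 was -1.28 without methylparaben 1, the library at 0 (adjusted p = 0.425). FANCA, another core complex subunit, was not tested and had 2 and 1 counts with methylparaben and 11 and 8 with ethanol, a ratio of 0.132 with an interval of 0.0250 to 0.448. All but 2 of those counts were on the retained-intron transcript FANCA-227, with 1 count with methylparaben and 19 with ethanol. FANCG had 10 counts with methylparaben and 24 with ethanol, all on retained-intron transcripts, and the ubiquitin ligase FANCL had 18 with methylparaben and 24 with ethanol. FANCM, the translocase that anchors the complex, had 5 counts with methylparaben and 3 with ethanol. FANCE had none in any library, on 280 single-transcript bases.

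FANCI, one of the pair that the core complex marks with ubiquitin, had 15.2 and 9.42 CPM with methylparaben and 31.5 and 16.5 CPM with ethanol. The groups did not overlap, and its log2 change of -0.92 ± 0.42 missed the threshold (adjusted p = 0.114). It was called without methylparaben 1 (adjusted p = 0.0200) or ethanol 2 (0.0397), while the log2 change was -0.41 without ethanol 1 (0.589) and -0.62 without methylparaben 2 (0.249). Its reads were 95.7% on retained-intron transcripts, mainly FANCI-212, with 13.6 and 9.51 CPM with methylparaben and 31.2 and 16.8 CPM with ethanol. FANCD2, its partner, had 9 counts with methylparaben and 8 with ethanol.

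Nucleases and helicases that resolve joined DNA molecules gave no call. WRN, the helicase lost in Werner syndrome, had 81.6 and 61.2 CPM with methylparaben and 102.5 and 66.2 CPM with ethanol, overlapping groups with a log2 change of -0.23 ± 0.27 (adjusted p = 0.528). SLX4, the scaffold of several nucleases, had 4.08 and 5.23 CPM with methylparaben and 7.65 and 5.19 CPM with ethanol (adjusted p = 0.514). BLM, the helicase of Bloom syndrome, had 5 counts with methylparaben and 1 with ethanol, and the nuclease subunits MUS81 and EME1 had 2 and 5 counts with methylparaben, against 0 and 3 with ethanol. POLQ, the polymerase of microhomology end joining, had 0 counts in all 4 libraries, on 646 single-transcript bases.

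The chromatin proteins that act at breaks were among the deeper-read genes of the set, and MDC1 and RIF1 were lower. MDC1, the scaffold that binds phosphorylated histone H2AX, had 47.1 and 31.4 CPM with methylparaben and 101.2 and 92.2 CPM with ethanol, 2.43-fold lower (log2 change -1.28 ± 0.26, adjusted p = 0.00441). All its reads were on MDC1-201, and 73.9% of the 3660 bases read there are coding. RIF1, which acts with TP53BP1 against end trimming, had 169.8 and 145.5 CPM with methylparaben and 212.6 and 307.7 CPM with ethanol, 1.65-fold lower (log2 change -0.72 ± 0.21, adjusted p = 0.0236). The call of RIF1 was lost without ethanol 2, its highest library (adjusted p = 0.300), and with limma on the FPKM scales (0.193 to 0.367). TP53BP1 as a gene had 39.996 and 33.0 CPM with methylparaben and 43.0 and 55.4 CPM with ethanol, a log2 change of -0.42 ± 0.27 that was not called (adjusted p = 0.246).

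The sum for TP53BP1 hid a change in which of its transcripts were read. TP53BP1-203, the longest coding transcript, had 11.7 and 5.29 CPM with methylparaben and 35.5 and 43.7 CPM with ethanol, 4.43-fold lower (log2 change -2.15 ± 0.40, adjusted p = 0.00276). It was called in all 10 transcript alternatives, with adjusted p from 3.17e-07 to 0.0200, and its log2 change was -2.89 without methylparaben 1. TP53BP1-212, annotated as a retained-intron transcript, had 22.2 and 22.2 CPM with methylparaben and 7.36 and 11.04 CPM with ethanol, 2.41-fold higher (log2 change 1.27 ± 0.39, adjusted p = 0.0274). Its call was lost without ethanol 1 (adjusted p = 0.171) or ethanol 2 (0.0518), with DESeq2 (0.0850) and with no filter (0.0583). TP53BP1-203 was read on 1234 untranslated bases, and TP53BP1-212 on 1 stretch of 800 intron bases on chromosome 15 from 43416417 to 43417216, of which the boundary is printed above. The annotated start of TP53BP1-212 is the edge of that stretch, inside the intron. Other RNA that holds these intron bases was not told apart from it.

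TP53BP1-203 made up 29.3% and 15.9% of the reads of the gene in the methylparaben libraries (exact 95% intervals 22.0 to 37.3 and 7.88 to 27.3), against 81.2% and 77.3% in the ethanol libraries (72.2 to 88.3 and 69.1 to 84.3). TP53BP1-212 made up 55.8% and 66.7% with methylparaben, against 16.8% and 19.5% with ethanol. The change in shares passed the test (diffSpliceDGE, adjusted p = 5.75e-05) and passed it in every alternative fitted, with adjusted p from 9.77e-06 to 0.00163. Among all 1172 genes with at least 2 tested transcripts 40.6% passed, so a call of this kind was common. Of the set only TP53BP1, ATM and WRN had 2 or more tested transcripts, and the shares of WRN were not called (adjusted p = 0.144). Counting coding transcripts alone, TP53BP1 fell by 1.85 on the log2 scale with an adjusted p of 0.00276.

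**Figure D3:**
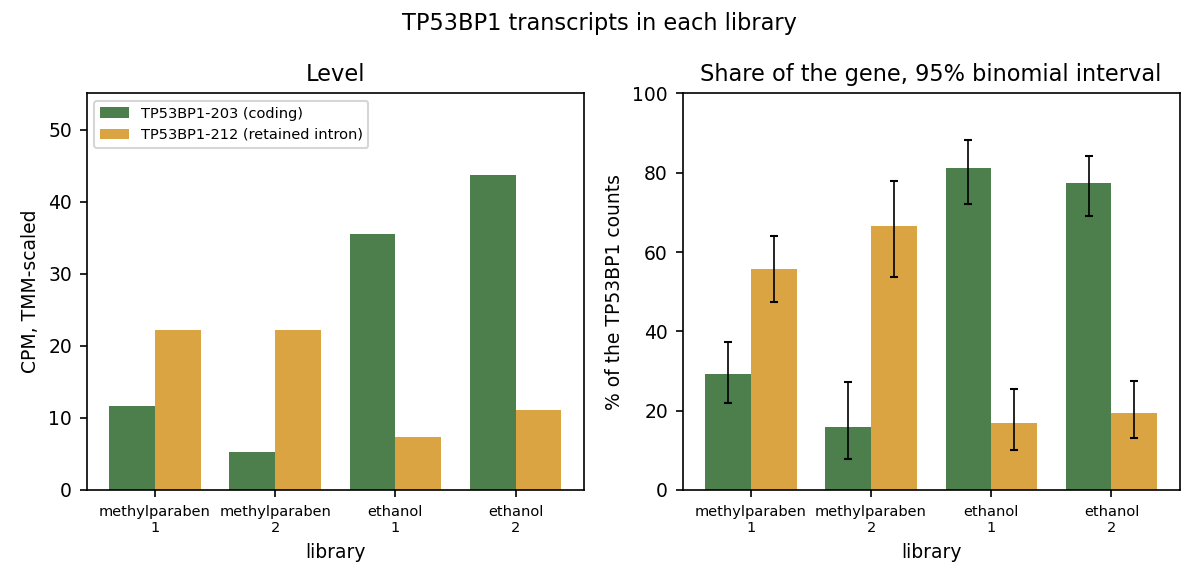
CPM (left) and percentage of the TP53BP1 counts with exact 95% binomial intervals (right) for the coding transcript TP53BP1-203 and the retained-intron transcript TP53BP1-212 in each library. The coding share was 29.3% and 15.9% in the methylparaben libraries and 81.2% and 77.3% in the ethanol libraries.

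Tested transcript by transcript, 4 of the 21 member transcripts with enough reads were higher with methylparaben and 8 were lower, beside 20.3% higher and 19.1% lower among all 9167 transcripts tested. With methylparaben 1, methylparaben 2, ethanol 1 or ethanol 2 left out, the higher ones numbered 1, 3, 0 and 2 and the lower ones 6, 7, 5 and 5, in that order. Of 14 coding transcripts 1 was higher and 7 were lower, beside 14.7% higher and 25.4% lower among all coding transcripts. Of 5 retained-intron transcripts 3 were higher and none lower, beside 39.7% higher and 6.02% lower among all retained-intron transcripts. Retained-intron transcripts held 12.004% and 12.03% of the reads of the 42 genes with methylparaben and 6.79% and 5.29% with ethanol. Over all protein-coding genes these shares were 5.996% and 5.93% with methylparaben and 3.52% and 3.42% with ethanol.

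The same transcripts were also grouped by position within the gene, a grouping chosen after the values were seen. It is not independent of transcript type, since all 5 tested retained-intron transcripts were read in introns. Transcripts were sorted by whether most of their counted bases lie in exons of the coding transcript with the longest coding sequence, in its introns, or outside it. Of 8 member transcripts read in exons none was higher and 4 were lower, with a median log2 change of -0.74. Among all transcripts read in exons 14.2% were higher and 26.7% lower, with a median of -0.21. Of 9 member transcripts read in introns 4 were higher and 2 lower, with a median of 0.73, beside 34.1% higher, 8.43% lower and a median of 0.78 among all such transcripts. Of 4 read outside, none was higher and 2 were lower, beside 9.86% higher and 30.7% lower among all. The intron share of the members' reads was 23.2% and 22.5% with methylparaben and 13.3% and 11.8% with ethanol.

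**Figure D4:**
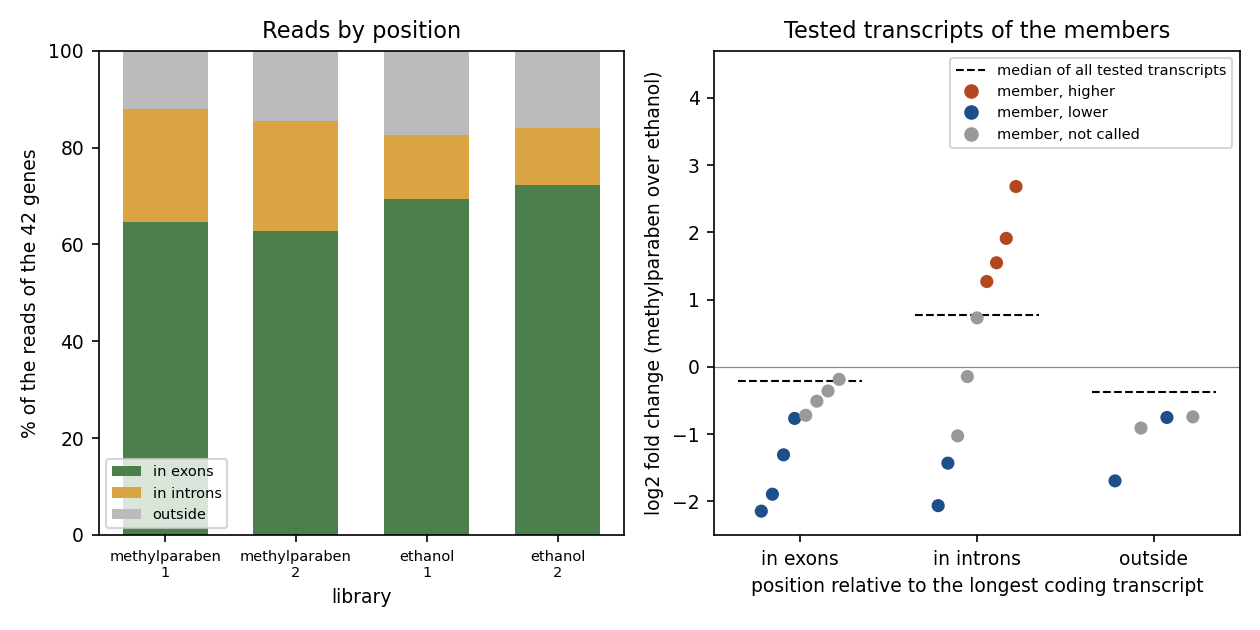
Left, the percentage of the reads of the 42 genes that lie in exons, in introns or outside the longest coding transcript, per library. Right, log2 fold change of methylparaben over ethanol for the 21 tested member transcripts by position, with the median of all tested transcripts of that position as a dashed line. The 4 higher transcripts, of the genes ATM and TP53BP1 only, are all in introns, where the median of all transcripts is 0.78.

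Of 104 member transcripts read but not tested, several stood far apart between the groups, in both directions. How many of all untested transcripts differ as much was not counted, and the intervals given hold counting error alone. ATR-206, a coding transcript of ATR, had 2 counts with methylparaben and 19 with ethanol, a ratio of 0.0878 with an interval of 0.00992 to 0.364, while ATR-201 had 723 with methylparaben and 670 with ethanol. FANCB-205, a transcript marked for nonsense-mediated decay, had 1 count with methylparaben and 21 with ethanol. TP53BP1-206, a processed transcript, had 22 counts with methylparaben and 3 with ethanol, a ratio of 6.12 with an interval of 1.84 to 31.9. By the authors' deposited table, an adjusted p under 0.05 was given to 16 of the 550 member transcripts, of 4471 among all 206601. These included 8 of the 12 transcripts called here, and 8 too low in counts to be tested here, among them ATR-206, FANCA-227, FANCB-205 and FANCC-210.

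Levels of transcripts read in exons are given per kilobase of counted sequence, as a description only. A read seems to count where it touches such a base, since FANCD2-210 had 4 counts in methylparaben 1 on 1 base. Transcripts counted in many short stretches may thus stand too high. WRN-201 had 13 stretches and ATR-201 had 29, against 3 for RIF1-201 and 2 for BRIP1-201. With methylparaben WRN-201 stood at 38.6 and 32.2 CPM per kilobase, ATR-201 at 28.8 and 27.4 and RIF1-201 at 25.2 and 22.0. With ethanol these were 56.8 and 34.5, 34.6 and 29.4, and 32.4 and 47.9 in that order. BRIP1-201 stood at 12.6 and 10.4 CPM per kilobase with methylparaben and 38.6 and 47.6 with ethanol. By this measure alone it lay above ATR-201 in ethanol cells and below it in methylparaben cells. TP53BP1-203 had 9.45 and 4.28 CPM per kilobase with methylparaben and 28.8 and 35.4 with ethanol. The lowest of the tested exon-read transcripts was SLX4-201, with 0.936 and 1.22 CPM per kilobase with methylparaben and 1.79 and 1.22 with ethanol.

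Beyond the 42 genes, 17 of 51 other recombination and Fanconi genes were tested, of which 2 were higher and 4 lower. Over all 8055 genes tested, 18.5% were higher and 18.4% lower. RFWD3, a ubiquitin ligase of crosslink repair, had 114.5 and 124.0 CPM with methylparaben and 267.5 and 273.1 CPM with ethanol (log2 change -1.18 ± 0.17, adjusted p = 0.000855). MMS22L, which acts in recombination at stalled forks, had 65.6 and 53.9 CPM with methylparaben and 128.4 and 189.1 CPM with ethanol (log2 change -1.40 ± 0.24, adjusted p = 0.00207). SMC6, of the SMC5/6 complex, went the other way, with 43.3 and 35.1 CPM with methylparaben and 11.1 and 9.52 CPM with ethanol (log2 change 1.93 ± 0.33, adjusted p = 0.00196).

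Other repair and checkpoint lists gave few tested genes and calls in both directions. Of 9 tested checkpoint and break-signalling genes none was higher and 2 were lower, among them WEE1, the kinase that restrains CDK1 (log2 change -1.82 ± 0.30, adjusted p = 0.00162). Of 3 end-joining genes none was higher and 2 were lower, DCLRE1C (Artemis, log2 change -1.46 ± 0.49) and PRKDC (the DNA-dependent kinase, -0.65 ± 0.23). Of 3 mismatch repair genes 2 were higher, PMS1 (log2 change 2.38 ± 0.64) and MSH3 (0.69 ± 0.19), and none was lower. Of 7 base excision genes 1 was higher and 1 lower, of 11 nucleotide excision genes 2 were higher and 2 lower, and of 8 translesion genes 3 were higher and 1 lower. Over all 58 tested repair genes outside the set 10 were higher and 12 lower, beside 18.5% higher and 18.4% lower among all genes tested. Their median log2 change was -0.10, beside -0.71 for the 20 tested members.

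Proliferation markers were lower as well. Of 10 tested markers none was higher and 7 were lower, with a median log2 change of -1.63, among them the topoisomerase TOP2A (log2 change -1.57 ± 0.17) and the mitotic kinase CDK1 (-2.04 ± 0.24) with its cyclin CCNB1 (-2.44 ± 0.36). The summed level of all 24 listed markers, tested or not, was 1032 and 981 CPM with methylparaben, against 2906 and 2580 CPM with ethanol. Most of that sum was TOP2A, with 761 and 655 CPM with methylparaben and 2244 and 1952 CPM with ethanol. The part of these markers in the lower counts of BRIP1, XRCC2, MDC1 and the others was not tested.

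Promoters of the members were searched for 4 elements in the 250 bases before the annotated start, on both strands, in RefSeq sequences on GRCh38.p14, which hold 38 of the 42 genes. The elements were the E2F site (TTTCCCGC, TTTCGCGC, TTTGCCGC or TTTGGCGC), the CHR element (TTTGAA or TTCGAA), the CCAAT box (CCAAT) and the C/EBP-ATF element (TGATGNAAN). The CCAAT box was in 4 of the 6 lower members, beside 35.7% of the promoters of all tested genes, and the CHR element was in 3 of the 6, beside 10.2%. The E2F site was in none of the 6, beside 4.61%, and the C/EBP-ATF element in none, beside 1.33%. ATM, the called-higher member that has an entry, holds both the CCAAT box and the CHR element. Of the 16 tested members with an entry, 7 hold the CCAAT box and 5 the CHR element. The promoters of the 2 genes with the largest called decreases are shown because they differ in this respect, over the bases upstream of every annotated exon of the gene. That of BRIP1 covers 250 bases at chr17:61863529-61863778 on the minus strand and holds 3 CCAAT boxes, at 117, 49 and 28 bases before the start, and 1 CHR element, all in capitals. That of XRCC2 covers 226 bases at chr7:152676166-152676391 on the minus strand and holds none of the 4.
BRIP1: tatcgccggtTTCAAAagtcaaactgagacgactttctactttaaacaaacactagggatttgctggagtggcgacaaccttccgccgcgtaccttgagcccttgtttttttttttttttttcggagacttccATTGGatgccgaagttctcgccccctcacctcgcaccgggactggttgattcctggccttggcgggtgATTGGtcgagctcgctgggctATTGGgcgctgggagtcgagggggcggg
XRCC2: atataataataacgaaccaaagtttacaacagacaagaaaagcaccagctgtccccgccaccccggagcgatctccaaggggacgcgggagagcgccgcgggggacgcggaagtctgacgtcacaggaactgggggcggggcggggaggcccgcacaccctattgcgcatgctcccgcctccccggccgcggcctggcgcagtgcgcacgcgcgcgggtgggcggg
Both genes were lower, BRIP1 by 3.57-fold with these letters and XRCC2 by 3.15-fold without them, and a match is a description of the sequence, not of a bound factor.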

How the data were processed

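Per transcript, the authors deposited raw counts, FPKM values, and log2 of FPKM plus 1, with p-values of their own comparison, per the file headers. Which aligner and counting program were used is not given in the sources used here. The submitters' processing notes list GRCh38, DESeq2, limma and edgeR. All 206601 transcripts matched GENCODE release 29 coordinates, and strand was ignored in counting, so antisense and overlapping reads are uncertain.

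The members and lists were chosen with earlier results of these data known. Every member was to be described, and other repair genes named only if called. Transcript counts were summed per gene, since the table holds transcripts, and genes or transcripts were filtered (filterByExpr, minimum count 10, total 15), TMM-scaled and tested two-sided with the quasi-likelihood test of edgeR 4.0.16 (R 4.3.3), Benjamini-Hochberg adjusted over all of them, threshold 0.05. Transcript shares were tested with diffSpliceDGE. Ratios at low counts are raw counts over the TMM-scaled library sizes of the gene fit with exact binomial intervals. The steps were tested on simulated data. Alternatives used DESeq2 1.42.0, limma 3.58.1 (voom and log2 FPKM), other filters and scalings, leaving out libraries, and the replicate number as a block. Replicates of a group differed beyond sampling noise (chi-square per degree of freedom 16.3 for methylparaben, 6.24 for ethanol).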

Additional observations from a re-analysis of the deposited data

How the results depend on the processing

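The gene counts were 2 higher and 6 lower. The higher count was 1 with DESeq2, with a filter of 5 CPM in 2 libraries, without retained-intron transcripts and with protein-coding transcripts only, and 1 whichever library was left out (where a lone library is assumed to vary like the other group). The lower count ran from 4 to 7 when each library was left out and from 4 to 8 in the other count-based alternatives. With limma on log2(FPKM + 1) for every gene above 0, both counts were 0, with 38 members tested. Higher transcripts were 4, against 1 with DESeq2 and 0 to 3 when each library was left out; lower ones were 8, against 5 to 7. Members with changed transcript shares were 1, against 1 to 3 when each library was left out. The members' mean share of all counts was 0.0667% with methylparaben and 0.113% with ethanol, and 0.0546% and 0.0974% on protein-coding transcripts only. The cause was not tested, apart from the fewer genes or samples that a filter or an omitted library leaves.

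Same-numbered libraries did not deviate together (correlation of deviations -0.15 for genes and -0.12 for transcripts). This correlation rests on 1 difference per group, so it cannot decide whether the libraries were paired. With the replicate block the counts were 2 higher and 5 lower genes, 4 higher and 6 lower transcripts and 1 gene with changed shares; MRE11 (adjusted p = 0.0691), MRE11-201 (0.0576) and RAD51B-210 (0.0808) lost their calls. The crossed pairing, added after seeing the data, gave 2 and 6 genes and 4 and 7 transcripts.

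Directions reversed only for values that were not called. TP53BP1 became 1.01 on log2(FPKM + 1), with the main filter and for every gene above 0, and 1.07 with a pseudocount of 0.1. FANCC became -0.033 with library size only, -0.30 and -0.34 with FPKM pseudocounts of 1 and 0.1, and ran from -0.30 to 0.35 when each library was left out. WRN became 0.026 and 0.025 on the FPKM scales (pseudocounts 1 and 0.1) and ran from -0.50 to 0.091 when each library was left out, and WRN-201 from -0.68 to 0.0018 and WRN-202 from -0.16 to 1.22. RAD54B became 0.18 without retained-intron transcripts, 0.011 with protein-coding transcripts only, and ran from -0.18 to 0.0065 when each library was left out, and RAD54B-201 from -0.38 to 0.13. Depth, together with the bases of each gene that could be counted, limits 22 members, which were not tested: 4 had no count and 18 had 2 to 42 counts over all libraries.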
